A study of Homo sapiens with 20 samples.

Results

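Nickel-exposed cells of the line BEAS-2B were compared by how long their exposure had lasted, in libraries labelled with a further interval of culture. BEAS-2B is an established, virally immortalised human line derived from bronchial epithelium. The comparison set the 2 libraries titled Ni_6W+2W directly against the 2 titled Ni_3D+14D, which makes 4 of the 20 RNA-seq libraries of the series, chosen by title alone. Ni_6W+2W cells had been kept in nickel chloride for 6 weeks, were then washed, and were grown for 2 weeks without nickel. Ni_3D+14D cells carry the label of the 3-day exposure with a further 14 days, and whether the medium of those 14 days was free of nickel is not given in the sources used here. The nickel concentration behind each library is likewise not given.

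Ni_6W (2 libraries, 6 weeks in nickel), Ni_3D (2 libraries, 3 days in nickel), Control_6W (2 libraries) and Control_3D (4 libraries) served as reference levels. No control library analysed here carries the further 14 days or the 2 weeks of washing out. By the labels the further interval is equally long in the compared groups (14 days and 2 weeks), while the length of exposure and the total time in culture differ together and cannot be told apart. The labels do not say whether replicates came from separate cultures, and the tests therefore measure the spread between these libraries, which may be technical.

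Nickel is known to interfere with the iron- and oxygen-dependent dioxygenases of the cell. These include the prolyl hydroxylases that mark hypoxia-inducible factor for breakdown and the demethylases of histones and DNA. Exposed bronchial cells are therefore studied for hypoxia genes during exposure, and for a lasting epithelial-mesenchymal transition (EMT) afterwards, in which cells lose E-cadherin and other junction proteins and gain mesenchymal ones under repressors of the ZEB, SNAIL and TWIST families. The question here was whether cells labelled with a long exposure and its washing out differ from cells labelled with a short exposure and a further 14 days. In the text, after the long and after the short exposure stand for these labels.

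Totals were 33733301 and 23509793 reads in the Ni_6W+2W libraries and 22292199 and 30903145 in the Ni_3D+14D libraries. Levels are given as CPM (reads of a gene per 1000000 reads) after TMM scaling, and 14444 genes of 25411 had enough reads to be tested. The 12 keratins and other genes fixed as marks of the line summed to between 2403 and 4659 CPM in Ni_6W+2W and between 3028 and 3835 CPM in Ni_3D+14D. Markers of ciliated and secretory airway cells summed to at most 3.54 CPM in the 4 libraries, and those of endothelial cells to at most 1.56 CPM. The fibroblast list summed to between 3221 and 5323 CPM in Ni_6W+2W and between 3253 and 3680 CPM in Ni_3D+14D, nearly all of it COL1A1 and THY1, while DCN had no read in the 4 libraries. E-cadherin, encoded by CDH1 and the defining marker of epithelium, lay below 1 CPM in all 4, so the epithelial label does not rest on that gene. The 12 genes of the line are not all keratins, and their sum was of the same order as that of the fibroblast list.

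No gene passed an adjusted p of 0.05 between the compared groups. The edgeR quasi-likelihood test called 0 of 14444 genes (0.0%), and the adjusted p was 1 for every gene. Without adjustment, 84 genes (0.582%) had p under 0.05: 20 genes (0.138%) were higher and 64 (0.443%) lower in Ni_6W+2W. That is less than the fraction of 0.05 that chance alone would give on average, and the reason was not tested. The 0 calls do not show that the groups are alike. DESeq2, run beside edgeR, called 2 genes, both read-through models whose coordinates cover neighbouring genes (HSPE1-MOB4 and ZNF664-FAM101A). HSPE1-MOB4 was at 0 and 5.12 CPM in Ni_6W+2W and 0 and 0 CPM in Ni_3D+14D. The 95% confidence interval of the log2 difference reached a median of 0.76 to either side, and for 8165 genes (56.5%) the whole interval lay within a 2-fold difference in either direction. For the other genes these libraries set no such bound. Ni_6W replicate 1, which enters the fit only for its spread, was at a root mean square log2 difference of 0.669 or more from every other uncloned library, and with both Ni_6W libraries left out the test again called 0 genes, with 151 at an unadjusted p under 0.05.

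Libraries of the long exposure differed more from each other than from libraries of the short one. Replicates 1 and 2 of Ni_6W+2W were over 2-fold apart (on log2 of CPM + 1) in 722 of the 14444 tested genes, or 5.0%. Ni_3D+14D replicates were that far apart in 59 genes (0.408%), 26 higher (0.18%) and 33 lower (0.228%) in replicate 1. The 4 pairs across the groups had 125 to 423 such genes, fewer than the pair within Ni_6W+2W. Means of the groups were over 2-fold apart in 66 genes (0.457%).

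**Figure D1:**
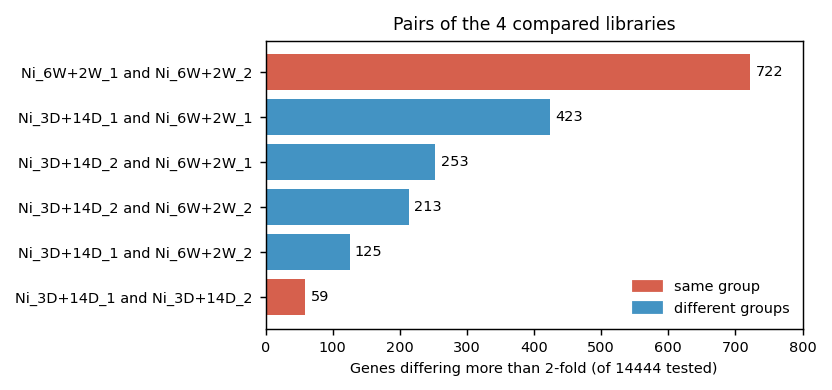
Number of tested genes more than 2-fold apart (horizontal axis, log2 of CPM + 1, of 14444) for each pair of the 4 compared libraries, with pairs of the same group in red and pairs across groups in blue. The widest pair is that of the Ni_6W+2W replicates with 722 genes and the closest that of the Ni_3D+14D replicates with 59.

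In 4825 genes (33.4%) both Ni_3D+14D levels lay between the Ni_6W+2W levels, and in 1257 genes (8.7%) both Ni_6W+2W levels lay between those of Ni_3D+14D. By the root mean square of the log2 differences, Ni_6W+2W replicate 1 was nearest to Ni_3D+14D replicate 2 (0.338). Ni_6W+2W replicate 2 was nearest to replicate 2 of Ni_6W, the cells still in nickel (0.245). The replicates of Ni_6W+2W were 0.505 apart on the same measure and those of Ni_3D+14D 0.279. Each Ni_6W+2W library was thus closer to a library of another group than to its own replicate.

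Among the repressors that drive EMT, ZEB1 and ZEB2 encode zinc finger proteins that silence E-cadherin. ZEB1 stood at 9.86 and 16.2 CPM in Ni_6W+2W and 10.4 and 11.8 CPM in Ni_3D+14D, and the Ni_3D+14D libraries lay between the other two. Its log2 difference was 0.23 (SE 0.36, 95% interval -0.57 to 1.04). Control_6W libraries had 0.972 and 0.602 CPM of ZEB1, so both compared groups were above them, whereas Control_3D was split, with 11.9, 12.4, 1.03 and 1.76 CPM in replicates 1 to 4. ZEB2 was at 111 and 84.7 CPM in Ni_6W+2W and 88.2 and 97.6 CPM in Ni_3D+14D, close to the 112 and 66.4 CPM of Control_6W. TWIST1, a basic helix-loop-helix repressor of the same programme, was at 29.2 and 26.4 CPM in Ni_6W+2W and 33.2 and 25.8 CPM in Ni_3D+14D, and its levels overlapped too.

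SNAI1, a further E-cadherin repressor, was low and did not overlap between the groups. It was measured at 2.06 and 1.80 CPM in Ni_6W+2W and 0.963 and 1.01 CPM in Ni_3D+14D, with a log2 difference of 0.96 (95% interval -0.29 to 2.22), and Control_6W lay above both at 3.13 and 2.65 CPM. SNAI2 was at 3.09 and 1.05 CPM in Ni_6W+2W and 1.18 and 1.56 CPM in Ni_3D+14D, with the Ni_3D+14D libraries between the Ni_6W+2W ones. Of the 20 regulators listed as EMT transcription factors 14 were tested. Their median log2 difference was 0.02, against -0.01 over all genes, with 2 higher and 2 lower without overlap of the libraries (14.3% each way). The higher ones were SNAI1 and TCF4 and the lower ones TWIST2 and GRHL3.

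Over all 14444 genes, 1703 (11.8%) were higher and 2036 (14.1%) lower in both Ni_6W+2W libraries than in either Ni_3D+14D library. These shares are the background for every such count here, and the counts of EMT regulators lie close to them. Genes of a list can rise and fall together in a library. A share away from the background is therefore not a count of independent observations, and none was tested.

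Among the 10 EMT genes named in all cases, FN1 had the smallest unadjusted p. The gene of the matrix protein fibronectin, which EMT adds, was at 582 and 609.7 CPM in Ni_6W+2W and 1042 and 1164 CPM in Ni_3D+14D. The libraries within each group nearly agreed, and the Ni_6W+2W libraries were lower by a log2 difference of -0.89 (SE 0.28, 95% interval -1.52 to -0.26, unadjusted p = 0.011 by edgeR). Both groups lay above Control_6W, at 116 and 171 CPM, while Control_3D again split into 3184, 3109, 159 and 102 CPM. Vimentin, the intermediate filament of mesenchymal cells, was at 2947 and 1507 CPM in Ni_6W+2W, on both sides of the 2480.4 and 2464 CPM in Ni_3D+14D. N-cadherin (CDH2) was at 236 and 196 CPM in Ni_6W+2W and 204 and 233 CPM in Ni_3D+14D, with a log2 difference of -0.02 (95% interval -0.69 to 0.66).

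The epithelial adhesion genes CDH1 and EPCAM were low in the compared libraries, unlike the keratin KRT7, and were low in unexposed cells too. Control_6W had 0.432 and 1.93 CPM of CDH1 and 2.00 and 3.43 CPM of EPCAM. CDH1 was at 0.424 and 0.742 CPM in Ni_6W+2W and 0.394 and 0.487 CPM in Ni_3D+14D, and EPCAM at 1.60 and 1.80 CPM in Ni_6W+2W and 2.80 and 2.31 CPM in Ni_3D+14D, lower without overlap in Ni_6W+2W by a log2 difference of -0.59 (95% interval -1.66 to 0.49). Of 42 tested genes of epithelial junctions and identity 3 were higher and 7 lower without overlap (7.14% and 16.7%), and of 32 mesenchymal and contractile genes 2 and 7 (6.25% and 21.9%). Transgelin (TAGLN), an actin-binding protein of contractile cells, was at 498 and 167 CPM in Ni_6W+2W and 748 and 975 CPM in Ni_3D+14D. NT5E, the CD73 surface enzyme, was at 40.5 and 35.7 CPM in Ni_6W+2W and 56.1 and 76.7 CPM in Ni_3D+14D, with a log2 difference of -0.80. In bulk RNA, fewer cells of a kind and less RNA per cell cannot be told apart, which holds for each level given.

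**Figure D2:**
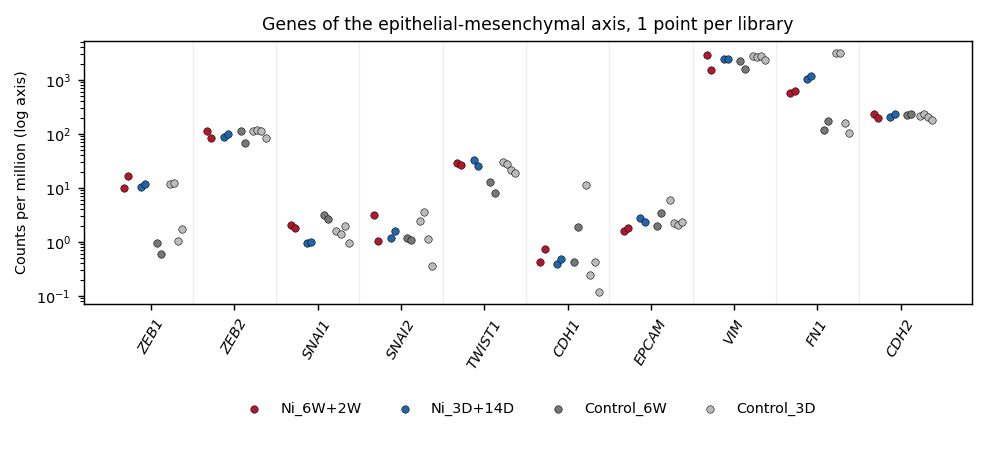
CPM (vertical log axis) of 10 EMT genes, 1 point per library, in Ni_6W+2W, Ni_3D+14D, Control_6W and Control_3D. Ni_6W+2W and Ni_3D+14D overlap for 7 of the 10 genes and are apart for SNAI1, EPCAM and FN1, and Control_3D falls into separate pairs for ZEB1 and FN1 (a point at 0 would not show on this axis, and none is at 0).

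Genes of cholesterol synthesis and other SREBP targets were the list with the largest share of members that separated the groups. The sterol regulatory element-binding proteins (SREBPs) switch on these genes when membrane cholesterol is low, together with the factor NF-Y, whose usual site contains CCAAT. All 34 tested members had a negative log2 difference, with a median of -0.50, so that they were lower after the long exposure than after the short one. In 26 of them (76.5%, against 14.1% of all genes) both Ni_6W+2W libraries lay below both Ni_3D+14D libraries, and none was higher without overlap. None was called after adjustment, and 8 had an unadjusted p under 0.05. Genes under a shared regulator may move together, so the 26 are not separate observations. The list stands out among 29 pathway lists, and its share was not tested.

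Windows of 250 bases before the transcript start are shown for 2 of these genes with a single window in the RefSeq table (GRCh38.p14), because they hold the CCAAT letters that recur in the list. Each is written 5′ to 3′ on the strand of its gene, with CCAAT and its reverse complement ATTGG in capitals. The first is chr1:155308616-155308865 (plus strand) and the second chr16:88663092-88663341 (minus strand).
FDPS: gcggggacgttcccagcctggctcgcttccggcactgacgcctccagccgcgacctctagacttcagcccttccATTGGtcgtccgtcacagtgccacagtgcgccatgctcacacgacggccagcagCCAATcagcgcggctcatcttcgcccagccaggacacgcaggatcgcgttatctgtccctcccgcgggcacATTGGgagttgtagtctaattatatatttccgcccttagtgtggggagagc
MVD: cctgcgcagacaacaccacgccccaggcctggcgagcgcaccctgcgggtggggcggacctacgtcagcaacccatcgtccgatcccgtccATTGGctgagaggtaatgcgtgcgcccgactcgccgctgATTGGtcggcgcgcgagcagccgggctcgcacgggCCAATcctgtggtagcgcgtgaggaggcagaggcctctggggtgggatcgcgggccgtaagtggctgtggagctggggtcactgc
FDPS and MVD hold 3 matches each. RefSeq windows were matched for 26 of the 34 tested members, and 20 of these (76.9%) had CCAAT, on either strand, in at least 1 window, against 41.0% of 10451 tested genes with a window. CACGTG, the E-box letters that basic helix-loop-helix proteins bind, stood in 3 of the 36 windows of these members (8.33%) and in 8.14% of the windows of tested genes. A match is a description of letters and not of binding.

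The early enzymes of the pathway make isoprenoids from acetyl-CoA. HMGCS1, hydroxymethylglutaryl-CoA synthase, was at 44.8 and 81.5 CPM in Ni_6W+2W and 125 and 134 CPM in Ni_3D+14D, a log2 difference of -1.04 (95% interval -1.98 to -0.09). MVD, which decarboxylates mevalonate diphosphate, was at 40.6 and 46.6 CPM in Ni_6W+2W and 84.2 and 72.9 CPM in Ni_3D+14D. FDPS, farnesyl diphosphate synthase, was at 229 and 257 CPM in Ni_6W+2W and 427 and 381 CPM in Ni_3D+14D, and its log2 difference of -0.73 had an SE of 0.21 and an unadjusted edgeR p of 0.0073. The libraries of these 3 enzymes did not overlap between the groups.

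Enzymes that lead from farnesyl diphosphate to cholesterol were lower in Ni_6W+2W as well. FDFT1, squalene synthase, was at 142 and 139 CPM in Ni_6W+2W and 235 and 212 CPM in Ni_3D+14D, and SQLE, the squalene epoxidase that follows it, at 66.3 and 62.3 CPM in Ni_6W+2W and 106 and 103 CPM in Ni_3D+14D. DHCR7, the reductase of the last step, was at 114 and 151 CPM in Ni_6W+2W and 249.9 and 214 CPM in Ni_3D+14D, a log2 difference of -0.80 (SE 0.24, unadjusted p = 0.0092 by edgeR). LSS, which closes the sterol rings, was at 232 and 255 CPM in Ni_6W+2W and 458 and 348 CPM in Ni_3D+14D.

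A feedback gene of the pathway and a gene of fatty acid synthesis showed the same order. INSIG1, which holds SREBP in the endoplasmic reticulum, was at 52.3 and 100.4 CPM in Ni_6W+2W and 144 and 134 CPM in Ni_3D+14D. FASN, fatty acid synthase, was at 543 and 528 CPM in Ni_6W+2W and 905 and 725 CPM in Ni_3D+14D. The regulators themselves overlapped between the groups, SREBF2 at 383 and 507 CPM in Ni_6W+2W and 585 and 501 CPM in Ni_3D+14D and SREBF1 at 146 and 217 CPM in Ni_6W+2W and 244 and 188 CPM in Ni_3D+14D.

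The same genes were set against the controls of each arm. Both Ni_3D+14D libraries lay above all 4 Control_3D libraries in 26 of the 34 members (76.5%, against 11.4% of all genes). Both Ni_6W+2W libraries lay above both Control_6W libraries in 9 members (26.5%, against 23.9%). FDPS, for example, had 224, 203, 195 and 209.5 CPM in Control_3D and 178 and 178 CPM in Control_6W. Other members were unequal in Control_6W, such as STARD4 at 30.6 and 72.4 CPM and HMGCS1 at 32.1 and 47.1 CPM. A single high control library keeps a gene out of such a count, so these shares do not compare the arms. Cells still in nickel at 6 weeks had 314 and 380.0 CPM of FDPS, and cells in nickel for 3 days 173 and 207 CPM.

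**Figure D3:**
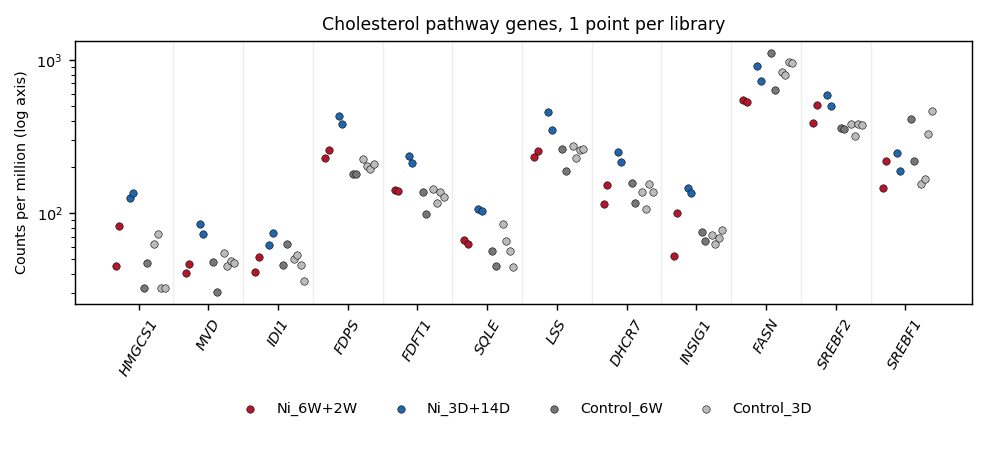
CPM (vertical log axis) of 12 genes of the cholesterol pathway, 1 point per library, in Ni_6W+2W, Ni_3D+14D, Control_6W and Control_3D. For the first 10 genes both Ni_3D+14D points lie above both Ni_6W+2W points, while the regulators SREBF2 and SREBF1 overlap.

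Metallothioneins, the cysteine-rich proteins that bind zinc, copper and cadmium, showed a difference in the same direction. MT2A was at 148 and 144 CPM in Ni_6W+2W and 460.3 and 392 CPM in Ni_3D+14D. Both Ni_3D+14D libraries were above both Ni_6W+2W libraries, with a log2 difference of -1.54 (SE 0.50, 95% interval -2.68 to -0.40, unadjusted p = 0.013 by edgeR). MT1E was at 16.3 and 16.1 CPM in Ni_6W+2W and 42.9 and 41.3 CPM in Ni_3D+14D and MT1F at 1.42 and 2.93 CPM in Ni_6W+2W and 6.61 and 4.68 CPM in Ni_3D+14D. In all, 4 of 9 tested members of the metallothionein and zinc list (44.4%) were lower without overlap and none was higher. MTF1, the zinc-sensing factor that drives these genes, was at 39.4 and 43.5 CPM in Ni_6W+2W and 38.4 and 42.5 CPM in Ni_3D+14D, and SLC30A1, a zinc exporter, at 16.2 and 13.98 CPM in Ni_6W+2W and 15.2 and 17.9 CPM in Ni_3D+14D.

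Control levels of these genes were themselves unequal. MT2A had 199 and 741 CPM and MT1E 16.4 and 232 CPM in Control_6W, and SLC30A1 had 22.04 and 192 CPM there. Control_6W replicate 2 thus stood above every compared library in all 3. In Control_3D replicates 1 to 4 MT2A was at 140, 153, 276 and 373 CPM, so replicates 1 and 2 were near the Ni_6W+2W levels. The metallothionein genes are near-identical copies, and reads shared between them may have been split or dropped in the authors' counting.

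The MT2A window is printed for its metal response elements, whose core was searched as TGCACNC or TGCGCNC on both strands (capitals, with reverse complements). The 250 bases span chr16:56608334-56608583 of GRCh38.p14 on the plus strand, from RefSeq, and hold 7 matches. Of all windows of tested genes 31.5% hold at least 1, so presence alone is common.
MT2A: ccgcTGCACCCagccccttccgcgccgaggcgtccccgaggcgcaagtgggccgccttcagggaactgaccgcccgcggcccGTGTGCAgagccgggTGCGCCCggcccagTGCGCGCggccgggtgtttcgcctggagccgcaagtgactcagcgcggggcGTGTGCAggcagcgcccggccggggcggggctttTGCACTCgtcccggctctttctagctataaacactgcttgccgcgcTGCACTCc

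Cytokines and other NF-kB targets lay mostly lower after the long exposure. Of 42 tested members 17 (40.5%) were lower and 2 (4.76%) higher without overlap, with a median log2 difference of -0.33 and no called member. CCL2, a monocyte attractant, was at 169 and 139 CPM in Ni_6W+2W and 255 and 266 CPM in Ni_3D+14D. ICAM1, an adhesion molecule for leukocytes, was at 438 and 547 CPM in Ni_6W+2W and 732 and 620.1 CPM in Ni_3D+14D, and the cytokine IL32 at 70.5 and 96.9 CPM in Ni_6W+2W and 126 and 111 CPM in Ni_3D+14D. Their 95% intervals, -2.60 to 1.09, -1.11 to 0.20 and -1.05 to 0.04 on the log2 scale, all include 0. CSF3, a granulocyte growth factor, was low at 0.605 and 0.391 CPM in Ni_6W+2W and 2.23 and 2.27 CPM in Ni_3D+14D.

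Enzymes under NRF2 and of xenobiotic metabolism were the list with the largest share on the other side. Of 34 tested members 12 (35.3%, against 11.8% of all genes) were higher in Ni_6W+2W without overlap and 1 (2.94%) lower, with a median log2 difference of 0.25. NQO1, a quinone reductase and standard NRF2 target, was at 144 and 162 CPM in Ni_6W+2W and 113 and 132 CPM in Ni_3D+14D. AKR1C3, an aldo-keto reductase, was at 3.66 and 9.53 CPM in Ni_6W+2W and 3.20 and 2.82 CPM in Ni_3D+14D, and the steroid and xenobiotic hydroxylase CYP1B1 at 84.3 and 72.99 CPM in Ni_6W+2W and 32.1 and 55.03 CPM in Ni_3D+14D. Their log2 differences of 0.32, 1.13 and 0.85 had 95% intervals of -0.25 to 0.89, -0.28 to 2.53 and -0.01 to 1.72. Without Ni_6W+2W replicate 2 the difference of AKR1C3 was 0.28. None of the list reached an unadjusted p under 0.05.

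Collagens were lower or overlapping. Of 26 tested collagen genes 10 (38.5%) were lower without overlap and none higher, with a median of -0.22. COL4A1, a basement membrane chain, was at 303 and 377 CPM in Ni_6W+2W and 477 and 444 CPM in Ni_3D+14D, and COL6A2, a microfibril chain, at 129 and 340.0 CPM in Ni_6W+2W and 438 and 355 CPM in Ni_3D+14D. COL1A2, a fibrillar chain, overlapped, at 63.8 and 26.6 CPM in Ni_6W+2W and 18.7 and 27.3 CPM in Ni_3D+14D, and was far above Control_6W (0.540 and 0.181 CPM).

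Matrix glycoproteins and matricellular proteins were close to the background. Of 53 tested members 6 (11.3%) were higher and 9 lower without overlap, with a median of 0.01. At an unadjusted p under 0.05 there were 3 lower members, FN1, POSTN and LAMB3, and 1 higher, LAMA2. POSTN, the matricellular protein periostin, was nearly absent, at 0.0908 and 0.156 CPM in Ni_6W+2W and 1.05 and 0.519 CPM in Ni_3D+14D, with a log2 difference of -2.63 (95% interval -4.38 to -0.87, unadjusted p = 0.0086 by edgeR). LAMB3, a laminin chain, was at 35.7 and 39.8 CPM in Ni_6W+2W and 61.9 and 62.8 CPM in Ni_3D+14D. LAMA2, another laminin chain, was at 0.333 and 0.234 CPM in Ni_6W+2W and 0 and 0.0325 CPM in Ni_3D+14D, the latter from a single read, too few for a fold. GAS6, a ligand of TAM receptors outside that list, was at 235 and 229.6 CPM in Ni_6W+2W and 355 and 372 CPM in Ni_3D+14D.

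Immediate early genes, which respond to growth factors and handling within minutes, were divided. FOS was at 8.29 and 9.10 CPM in Ni_6W+2W and 1.62 and 2.76 CPM in Ni_3D+14D, FOSB at 3.42 and 2.23 CPM in Ni_6W+2W and 1.27 and 1.10 CPM in Ni_3D+14D and EGR1 at 50.1 and 61.7 CPM in Ni_6W+2W and 26.3 and 36.98 CPM in Ni_3D+14D, each higher without overlap after the long exposure. FOS had a log2 difference of 1.98 (95% interval 0.51 to 3.45, unadjusted p = 0.014 by edgeR). Of the 19 tested members 5 (26.3%) were higher and 4 (21.1%) lower. Control_6W had 78.7 and 22.8 CPM of FOS, and in 16 of the 19 members (84.2%, against 20.7% of all genes) both Ni_6W+2W libraries lay below both Control_6W libraries.

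Hypoxia genes, a known readout of nickel exposure, had a median log2 difference of -0.08. Of 57 tested 4 (7.02%) were higher and 12 (21.1%) lower without overlap. CA9, a carbonic anhydrase used as a hypoxia marker, was at 10.4 and 25.3 CPM in Ni_6W+2W and 17.8 and 23.4 CPM in Ni_3D+14D, with the Ni_3D+14D libraries between the others, and at 628 and 368 CPM in cells 3 days in nickel. NDRG1, another target, was at 116 and 327 CPM in Ni_6W+2W and 297 and 247 CPM in Ni_3D+14D, against 2617 and 1705 CPM in those cells. ADM, a vasodilator peptide, was at 206 and 176 CPM in Ni_6W+2W and 282 and 368 CPM in Ni_3D+14D. Both Ni_3D+14D libraries lay above all 4 Control_3D libraries in 27 of the 57 genes (47.4%, against 11.4%), and both Ni_6W+2W libraries above both Control_6W libraries in 11 (19.3%, against 23.9%). Control_6W was itself unequal in some of these genes. Its replicates 1 and 2 had 44.8 and 166 CPM of NDRG1, 35.3 and 101 of VEGFA and 0.594 and 13.1 of CA9, but 25.1 and 27.4 of DDIT4. A single high control library keeps a gene out of the count, so these shares do not compare the arms.

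Of the 29 pathway lists 25 had a median log2 difference within 0.15 of 0, and the 4 outside were those of cholesterol, NF-kB, collagens and NRF2. Heat shock, ribosomal, interferon, TGF-beta, Wnt, integrin and HOX genes were among the 25. No list had a called member. For HOX genes, which fix positional identity, 13 of 26 (50.0%, against 23.9%) were above both Control_6W libraries in Ni_6W+2W, and their median between the compared groups was 0.02.

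**Figure D4:**
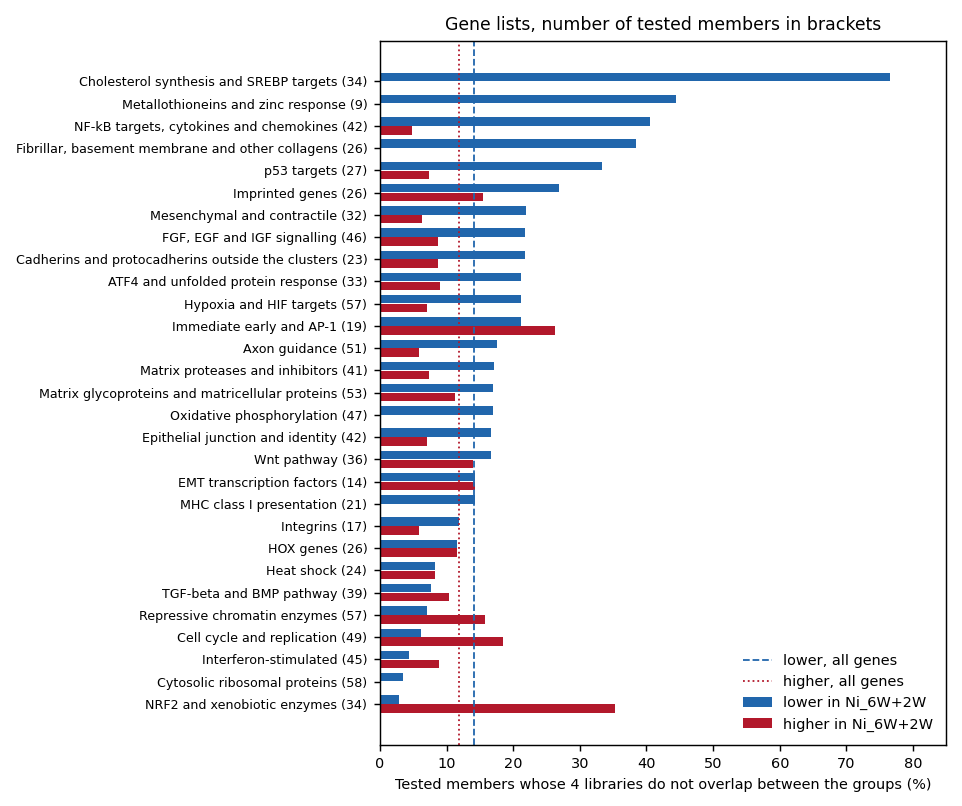
Share of tested members (horizontal axis, %) that were lower (blue) or higher (red) in both Ni_6W+2W libraries than in both Ni_3D+14D libraries, for 29 gene lists with the number of tested members in brackets. Dashed and dotted lines give the same shares over all genes, 14.1% and 11.8%, and the longest bars are those of the cholesterol list at 76.5% lower and the NRF2 list at 35.3% higher.

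Single genes with the smallest unadjusted p were named after their values were seen, 12 a direction, with no overlap and a mean of at least 5 CPM in the higher group. Outside the lists above, those lower after the long exposure included SLC12A7, a potassium-chloride cotransporter (chromosome 5, 1050489 to 1112172, hg19), at 9.99 and 14.5 CPM in Ni_6W+2W and 33.9 and 29.999 CPM in Ni_3D+14D. Its log2 difference was -1.38 (SE 0.33, 95% interval -2.12 to -0.64). Control_6W had 0.216 and 0.421 CPM and Control_3D 33.8, 25.8, 0.230 and 0.352 CPM, the same split as for ZEB1 and FN1. NPPB, the natriuretic peptide B gene, was at 132 and 76.4 CPM in Ni_6W+2W and 281 and 569 CPM in Ni_3D+14D, KISS1, which encodes the kisspeptin peptides, at 1.63 and 4.41 CPM in Ni_6W+2W and 11.3 and 12.4 CPM in Ni_3D+14D, and MGLL, monoglyceride lipase, at 5.45 and 8.08 CPM in Ni_6W+2W and 15.9 and 22.1 CPM in Ni_3D+14D. STMN3, a regulator of microtubules, was at 10.1 and 9.45 CPM in Ni_6W+2W and 18.3 and 19.6 CPM in Ni_3D+14D.

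Higher after the long exposure was GJA1, the gap junction protein connexin 43 (chromosome 6, 121756723 to 121770890, hg19), at 17.3 and 21.1 CPM in Ni_6W+2W and 10.8 and 8.70 CPM in Ni_3D+14D. Its log2 difference was 0.98 (SE 0.31, 95% interval 0.28 to 1.68), and both groups were above the controls, at 3.40 and 2.83 CPM in Control_6W and 4.35, 8.62, 2.18 and 3.63 CPM in Control_3D. METTL7A was at 12.2 and 18.7 CPM in Ni_6W+2W and 7.53 and 5.94 CPM in Ni_3D+14D, PLSCR4, a phospholipid scramblase, at 11.1 and 17.5 CPM in Ni_6W+2W and 8.50 and 8.02 CPM in Ni_3D+14D, and LRRC7 at 6.75 and 8.71 CPM in Ni_6W+2W and 3.55 and 3.86 CPM in Ni_3D+14D. TNFSF10, the death ligand TRAIL and a member of the NF-kB list, was at 4.96 and 8.87 CPM in Ni_6W+2W and 3.07 and 3.80 CPM in Ni_3D+14D. Its 95% interval on the log2 scale, -0.07 to 2.08, includes 0. PEG10, an imprinted gene derived from a retrotransposon, was at 245 and 137 CPM in Ni_6W+2W and 119.7 and 109 CPM in Ni_3D+14D, where replicate 2 of Ni_6W+2W was nearer to Ni_3D+14D than to its own replicate. SMAD9 and GABRE had log2 differences of 0.75 and 0.53, both with 95% intervals that include 0.

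The smallest unadjusted p of all (0.00027 by edgeR) belonged to the read-through gene ZNF664-FAM101A, at 11.4 and 15.7 CPM in Ni_6W+2W and 38.6 and 44.9 CPM in Ni_3D+14D. FAM101A, which lies within its coordinates, was at 44.3 and 8.87 CPM in Ni_6W+2W and 4.55 and 0 CPM in Ni_3D+14D. NARR, which lies within the coordinates of RAB34, was at 0 and 0 CPM in Ni_6W+2W and 9.33 and 14.8 CPM in Ni_3D+14D. How reads over such overlapping models were divided is not given in the sources used here, and these values are uncertain.

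The spread between the Ni_6W+2W replicates had its own gene content. Interferon-stimulated genes, the antiviral programme, were lower in replicate 1, with a median log2 difference between the replicates of -0.67 over 45 tested genes, of which 15 were over 2-fold lower in replicate 1 (against 3.68% of all genes) and none over 2-fold higher. OASL stood at 0.938 and 14.8 CPM in replicates 1 and 2, MX1, a GTPase that blocks viruses, at 11.2 and 48.7 CPM and IFITM1 at 11.6 and 60.8 CPM. Ni_3D+14D lay between these values, at 7.36 and 7.89, 33.2 and 32.8 and 37.2 and 29.5 CPM. Between the groups the list had a median of 0.04.

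Heat shock genes, whose products fold proteins, were the opposite case. Their median was 0.62 higher in replicate 1 of Ni_6W+2W over 24 genes, with 7 over 2-fold higher (against 1.32% of all genes). HSP90AA1 was at 1329 and 515 CPM in replicates 1 and 2 and HSPB1 at 993 and 339 CPM, again on both sides of Ni_3D+14D (725 and 774 and 665 and 561 CPM). Ribosomal protein genes differed by a median of 0.54 and oxidative phosphorylation genes by 0.41 in that direction. Between the Ni_3D+14D replicates the medians of these 4 lists ran from -0.16 to 0.08, against a median of 0.00 over all genes.

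**Figure D5:**
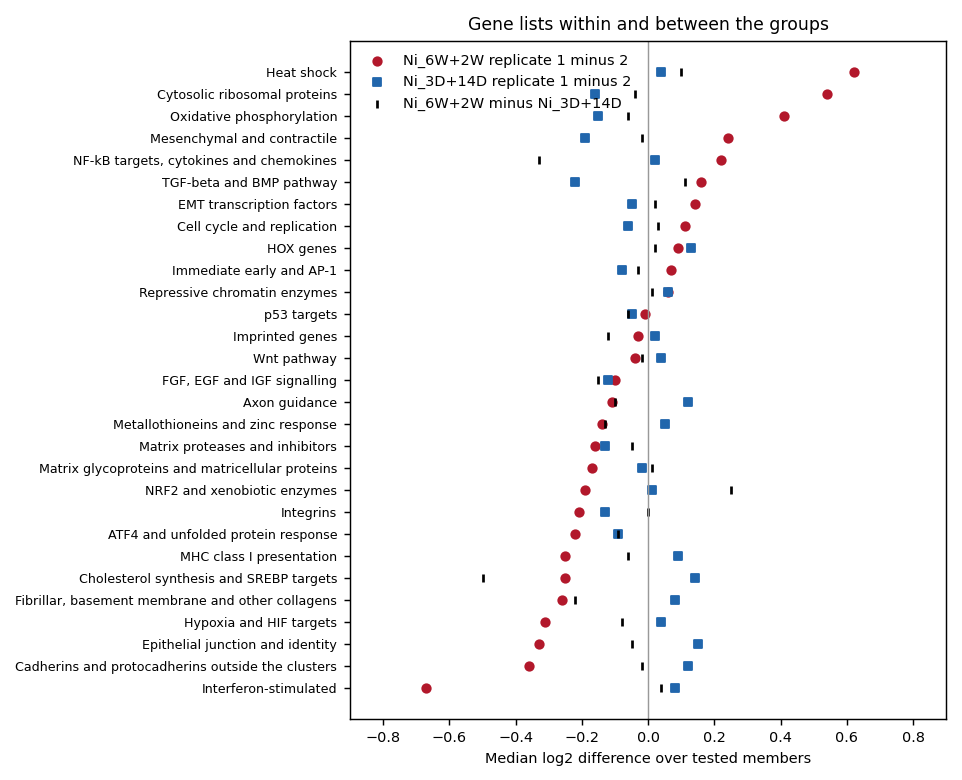
Median log2 difference over the tested members of each of 29 gene lists (horizontal axis) between the replicates of Ni_6W+2W (red circles), between those of Ni_3D+14D (blue squares) and between the groups (black ticks). The red points spread from -0.67 for interferon-stimulated genes to 0.62 for heat shock genes, while the ticks of those lists lie at 0.04 and 0.10.

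Among single genes of at least 5 CPM, CLSTN2, a synaptic cadherin-like protein, had the widest gap between the Ni_6W+2W replicates, at 1.21 and 40.7 CPM. Also wide were SULF1, a heparan sulfatase, at 9.56 and 98.7 CPM and DUSP2, a phosphatase of MAP kinases, at 62.1 and 5.16 CPM. COL5A3, a fibrillar collagen chain, was at 33.3 and 2.89 CPM, the acute phase gene SAA1 at 40.5 and 321 CPM and the keratin KRT7 at 1042 and 163 CPM. Control_6W had 0 and 0.120 CPM of CLSTN2, 6.43 and 12.04 CPM of SULF1 and 73.5 and 96.01 CPM of DUSP2. For COL5A3 it had 31.5 and 11.4 CPM and for KRT7 498 and 433 CPM, and replicate 1 was the nearer to the control mean for all of these on the log2 scale. SAA1 was the exception, at 47.6 and 299.9 CPM in Control_6W, with 1 control library near each replicate and their mean nearer to replicate 2. Among the 722 genes over 2-fold apart, replicate 1 was nearer to the mean of Control_6W in 482 (66.8%), against 55.7% of all tested genes. Because these genes were chosen for their gap, it carries no test.

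The difference between the groups was also taken beyond that between their controls, as Ni_6W+2W minus Control_6W less Ni_3D+14D minus Control_3D. The edgeR test called 0 of 14639 genes (0.0%), with 278 genes (1.9%) at an unadjusted p under 0.05, of which 113 were higher (0.772%) and 165 lower (1.13%). That share too was below the fraction of 0.05 that chance alone would give. ZEB1 had a log2 value of 3.35 (SE 1.28, 95% interval 0.54 to 6.15), FN1 of 2.62 (SE 1.72) and SLC12A7 of 4.20 (SE 2.39). These values depend on which Control_3D libraries are used. Without Control_3D replicates 1 and 2 these values were 0.97, -1.02 and -1.62, and none was called. Without replicates 3 and 4 they were 4.17, 3.56 and 5.16, and all 3 genes were called by edgeR (adjusted p = 0.00745, 0.00333 and 0.00258). With the replicate number as a block, which sets replicates 3 and 4 aside, they were 4.14, 3.59 and 5.16 and were called too (adjusted p = 0.0158, 0.00477 and 0.0071), among 35 higher and 1 lower gene. DESeq2 called 2 genes, TMX2-CTNND1 and TRIM58, with log2 values of 25.41 and 22.26, which are not read as folds here. TMX2-CTNND1 was at 12.8 and 30.3 CPM in Ni_6W+2W and 0 and 27.4 CPM in Ni_3D+14D. TRIM58 was lower in Ni_6W+2W, at 0.847 and 6.21 CPM, than in Ni_3D+14D, at 7.97 and 10.6 CPM. The edgeR fit without Control_3D replicates 3 and 4 called 45 higher and 4 lower.

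Control_3D replicate 1 also carried transcripts that the other 3 Control_3D libraries nearly lacked. TFF1 and ESR1, genes of estrogen-responsive epithelium, were at 20.1 and 3.52 CPM there, against at most 0.0383 and 0 CPM in the other 3, and had no read in the compared libraries. CDH1 was at 11.4, 0.245, 0.421 and 0.117 CPM in Control_3D replicates 1 to 4. Ni_3D replicate 1 held the same transcripts, with 33.5 CPM of TFF1, 10.8 of ESR1, 29.2 of CDH1 and 9.65 of EPCAM, while Ni_3D replicate 2 had 0.0238, 0, 0.0594 and 2.01 CPM. Their part in the Ni_3D levels of FDPS, CA9 and NDRG1 given above was not tested. The fit of the direct comparison holds neither Control_3D nor Ni_3D, which entered it only through the TMM factors.

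MT2A and DHCR7 kept their direction against both sets of controls. MT2A had a value of -2.54 (SE 0.73, unadjusted p = 0.0047) and DHCR7 of -0.84 (SE 0.30, unadjusted p = 0.016), both by edgeR and neither called after adjustment. For MT2A the value was -1.30 without Control_6W replicate 2, the library with its highest Control_6W level. Over the 34 cholesterol genes the median was -0.49, with 5 at an unadjusted p under 0.05, all lower. FOSB turned over, from 1.25 directly to -2.51 beyond the controls, since Control_6W had 36.3 and 48.996 CPM of it and Control_3D 2.99, 2.20, 4.97 and 2.23 CPM.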

How the data were processed

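RNA-seq libraries were made from total RNA of the BEAS-2B line with a TruSeq kit, per the labels' protocols. The authors deposited for each of the 20 libraries whole read counts per RefSeq gene (25411 genes), and these deposited counts, not the RPKM values beside them, were used. The submitters' processing notes name STAR 2.4, DESeq, DESeq2 and GRCh37. How reads were counted and whether strand was used is not given in the sources used here. Genes carry the hg19 coordinates of the deposited files. Libraries were joined by RefSeq identifier because a spreadsheet had changed 28 gene symbols in each of 2 libraries.

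TMM factors came from the 14 uncloned libraries. Genes were kept by filterByExpr (minimum count 10, minimum total 15) and tested with the edgeR 4.0.16 quasi-likelihood F test in R 4.3.3, with Benjamini-Hochberg adjustment over all tested genes and calls at an adjusted p under 0.05. The direct fit held 8 libraries (the 4 compared, Ni_6W and Control_6W, 4 residual degrees of freedom, biological coefficient of variation 29.2%). In the fit of the 4 compared libraries alone this coefficient was 21.9%. The fit against controls added Control_3D (12 libraries). Totals ran from 8609243 to 88848786 reads over all libraries. The edgeR test was also run on simulated counts with planted differences. Genes were drawn independently there, without the shared replicate differences seen here. That run therefore does not show how the tests behave in these libraries. DESeq2 1.42.0, RLE size factors, other filters, other sets of libraries, a replicate block and leaving out each library were tried as alternatives.

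Members and gene lists were chosen with earlier results of these data known. By rule, ZEB1, ZEB2, SNAI1, SNAI2, TWIST1, CDH1, EPCAM, VIM, FN1 and CDH2 were named in all cases, then the 15 largest called differences a direction and called list members. As no gene was called, all other genes were named after their values were seen. Some members of the cholesterol list are counted with it but are not reported here singly. Same-numbered replicates of Ni_6W+2W and Ni_3D+14D deviated oppositely from their group means (r = -0.21 across genes), and no label says that numbers pair, so no block was used. Over the other pairs of groups in the direct fit r ran from -0.03 (Ni_6W with Control_6W) to 0.27 (Ni_6W+2W with Control_6W). The 9 marker lists were summed as CPM. The markers of basal airway cells summed to between 82.6 and 239 CPM, of alveolar cells to between 57.3 and 79.3, of mammary luminal cells to between 92.9 and 123, of immune cells to between 33.8 and 54.6 and of neurons to between 45.3 and 93.0 CPM in the compared libraries.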

Additional observations from a re-analysis of the deposited data

Results flagged for a closer look

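Dixon's rule marked 1 of the 4 Control_3D libraries as far from the others in 3 of the genes for which control levels are given, and chance marks about 1 in 20 such groups. ZEB2 was low in Control_3D replicate 4, at 83.1 CPM. CDH1 was high in replicate 1, at 11.4 CPM, and EPCAM was high in the same library, at 5.97 CPM, where TFF1 and ESR1 were also present. Those libraries are not in the fit of the direct comparison.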

How the results depend on the processing

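In the direct comparison the count of called genes stayed at 0 with RLE size factors, both other filters, the replicate block, all 14 uncloned libraries and each library left out in turn (0 to 0), with 39 to 300 genes at an unadjusted p under 0.05 over these and the remaining alternatives. It was 2 with DESeq2 and 1 in the fit of the 4 compared libraries alone (NARR). An alternative chosen after seeing the data, with Ni_6W left out of the fit, also gave 0, as did a block with the numbers of Ni_3D+14D crossed. None of the 10 genes named in all cases and no list member was called there under any alternative. Of 60 genes followed by their log2 difference 53 kept its sign under every alternative. The exceptions, all but 1 with libraries left out, ranged over those fits from -0.17 to 0.55 for ZEB1, from -0.13 to 0.25 for ZEB2, from -0.38 to 1.16 for SNAI2, from -0.25 to 0.11 for TWIST1, from -0.06 to 0.74 for CDH1, from -0.71 to 0.25 for VIM and from -0.16 to 0.11 for CDH2, which was at 0.00 with the replicate block. The cause was not tested. The cholesterol list kept a negative median throughout, from -0.66 to -0.41.

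Beyond the controls the count of 0 became 2 with DESeq2, 36 with the replicate block, 49 without Control_3D replicates 3 and 4, and 0 to 4 with each library left out. The block and the fit without those replicates called 35 genes in common, 97.2% and 71.4% of their calls, since no other group has replicates 3 and 4 and the block then sets them aside. Counts of genes without overlap ran from 3216 to 5192 higher and from 3518 to 5955 lower when a compared library was left out, against 1703 and 2036, because fewer libraries have to agree. A pair of libraries a group limits what can be called, and in the direct comparison larger measured differences were not called either. NPPB and FOS, for example, had log2 differences of -2.03 and 1.98 there. For genes whose 95% interval reaches past 2-fold, these libraries do not exclude a difference of that size.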
